A study of Mus musculus with 5 samples.

Results

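The 9 genes described here are Ccnd1, Ccnd2, Ccnd3, Cdk4, Cdk6, Cdkn1b, Cdkn1c, Rb1 and Foxo3, which encode the machinery that holds a cell in G1 or lets it leave that phase. They were chosen by gene symbol from a table of counts per gene, and all 9 were among its 11194 genes. RNA was recovered with an anti-Staufen1 antibody from mouse skeletal muscle stem cells, the resident precursors of muscle fibres, described in the series as quiescent. Staufen1 recognises double-stranded stretches of RNA. 3 libraries came from cells of Stau+/+ mice (wild type 1 to 3) and 2 from cells of Stau-/- mice (knockout 1 and 2), and all 5 were immunoprecipitates with the same antibody. The sources used here do not give strain or age, or whether replicate libraries stem from separate mice, so that p-values measure only the spread between these libraries, which may be technical. No input RNA was used here. A gene's count therefore mixes how much of its RNA the cells held with how much was recovered, and in RNA from a pool of cells, fewer cells of a type and less RNA per cell cannot be told apart.

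D-type cyclins are the regulatory subunits that growth signals induce in G1. They bind the kinases CDK4 and CDK6, which phosphorylate the retinoblastoma protein and so release the E2F transcription factors that switch on genes of DNA replication. The inhibitors p27 (Cdkn1b) and p57 (Cdkn1c) bind cyclin-kinase complexes and restrain them, and FOXO3 is a transcription factor, shut out of the nucleus by AKT signalling, that favours cell cycle arrest. Muscle stem cells rest outside the cell cycle in uninjured muscle and re-enter it after injury, so these genes sit at the point where quiescence is kept or left. The comparison of wild type with knockout precipitates asks which RNAs came down with Staufen1 beyond the background of the antibody.

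Library totals ran from 33846391 to 105473455 counts in the wild type group and were 9370244 and 3091302 in the knockout group, so depth and labelled genotype cannot be told apart. Levels are given as CPM, counts relative to the TMM-scaled size of each library. Stau1, the targeted gene, was at 104.3 to 126.8 CPM in the wild type libraries and at 109 and 110.7 CPM in the knockout libraries, so its RNA does not check the labels, and directions below rest on those labels. The labelled cell type was checked on 10 markers of muscle stem cells, all of which were detected in every library. Their summed level was 6141.1 to 6684.9 CPM in wild type and 3822.6 to 4133 CPM in knockout. Of the 10, 2 were called higher in wild type, against 1.05% of all genes, and none lower, with a median log2 fold change of 0.57. Sdc4 and Des weighed most in these sums. All 10 log2 fold changes were above 0, the lowest those of Itga7 (0.02) and Pax7 (0.14), whose groups overlapped. The sum of 10 endothelial markers was 932.8 to 1236 CPM in wild type and 1897 to 2279 CPM in knockout. Of these, 4 of 10 were called higher in knockout, against 1.00% of all genes, and none was at a count of 0 in any library. Fabp4 weighed most in that sum, and all 10 log2 fold changes were below 0 (-1.34 to -0.19). Knockout 2 stood apart in the 9 measured muscle fibre markers, whose sum was 2684 CPM there, 424.6 CPM in knockout 1 and 557.6 to 649 CPM in wild type. The part that these shifts in markers have in any value below was not tested.

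Among the 9 genes, Ccnd1 alone was called, at an adjusted p under 0.05 and higher in wild type, and 8 were not called in either direction. Across all genes tested, the calls were 118 with the wild type level higher, which is 1.05%, and 112 with the knockout level higher, which is 1.00%. The median log2 fold change of wild type over knockout was 0.33 for the 9 genes and 0.00 for all genes, with 6 of the 9 above 0. Scaling the libraries to each other holds the median of all genes near 0. A higher recovery in wild type shared by most RNAs would therefore not show, and fold changes are relative to the other genes. For 6 of the 9 the libraries of the groups did not overlap, against 38.4% of all genes. In 5 of those (Ccnd1, Ccnd3, Cdk4, Cdkn1c and Foxo3) every wild type library was above both knockout libraries, against 20.4% of all genes, and in Rb1 both knockout libraries were above every wild type library, against 18.1% of all genes. An unadjusted p under 0.05 was found for 3 of the 9 (Ccnd1, Cdkn1c and Foxo3), against 20.4% of all genes, and the 3 were higher in wild type, against 10.4% of all genes.

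**Figure D1:**
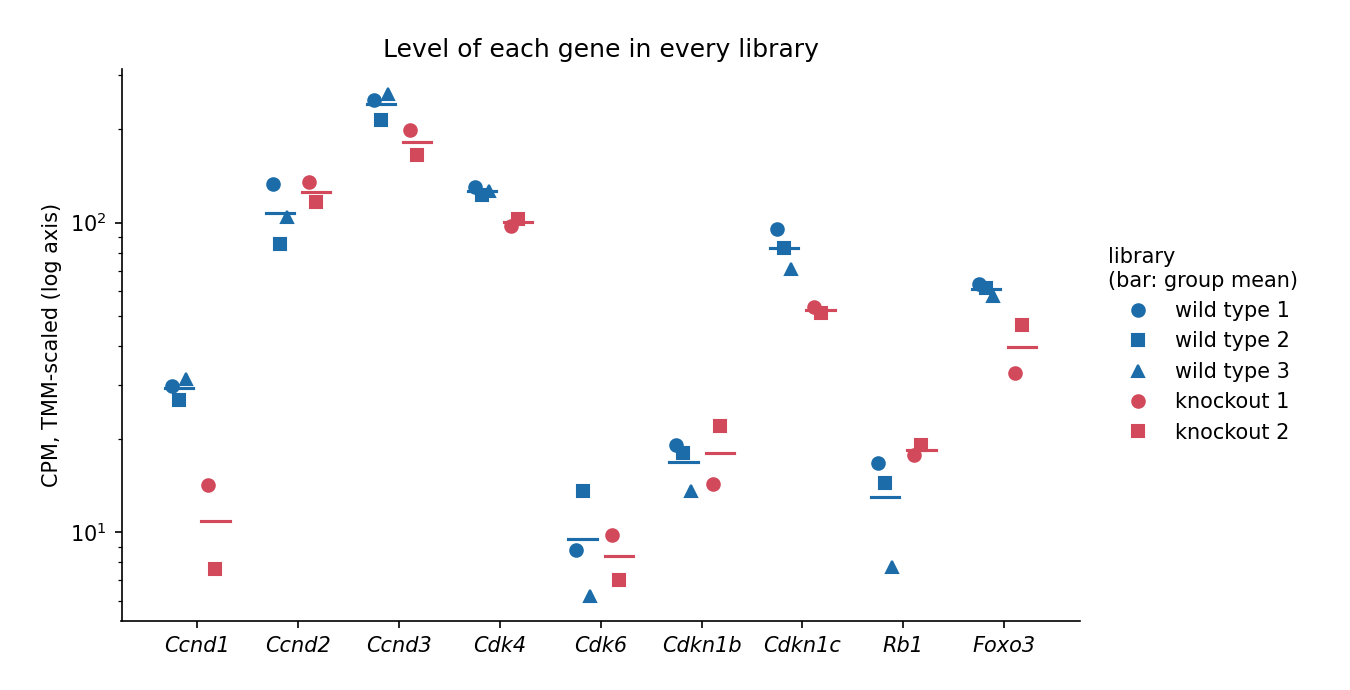
Level of each of the 9 genes in every library, in CPM on a log axis; symbols are single libraries, blue for wild type and red for knockout, and bars are group means. Ccnd1 lies at 26.7 to 31.3 CPM in wild type and at 14.2 and 7.63 CPM in knockout, whereas the libraries of Ccnd2, Cdk6 and Cdkn1b overlap between the groups.

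Ccnd1, which encodes cyclin D1, lies on chromosome 7 (144929931 to 144939869, minus strand, mm10) and has 3835 bases of exon in 5 pieces. Its level was 29.7, 26.7 and 31.3 CPM in wild type 1 to 3 and 14.2 and 7.63 CPM in knockout 1 and 2. The groups did not overlap: the lowest wild type library was well above the higher knockout library, and knockout 2 was the lowest of all. Means were 29.2 ± 2.32 CPM (SD, n = 3) and 10.9 ± 4.67 CPM (SD, n = 2). On the log2 scale wild type was higher by 1.36 (SE 0.32, 95% interval 0.68 to 2.05), a 2.58-fold difference, with an adjusted p of 0.0457 in edgeR's quasi-likelihood test. The log2 fold changes of the 10 muscle stem cell markers ran from 0.02 to 1.10; a difference between these and Ccnd1 was not tested.

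The knockout values of Ccnd1 rest on few counts, 136 in knockout 1 and 24 in knockout 2. Exact Poisson 95% intervals, which cover counting error only, were 11.9 to 16.8 CPM and 4.89 to 11.4 CPM, below the interval of 25 to 28.5 CPM in wild type 2, the lowest wild type library. The call lay close to the threshold. It was lost when any wild type library was left out (log2 fold change 1.31 to 1.43, adjusted p 0.06 to 0.147) and without knockout 2 (1.04, adjusted p = 0.12), and it was kept without knockout 1 (1.94, adjusted p = 0.0306), all in edgeR's quasi-likelihood test. It was also lost with upper-quartile factors (adjusted p = 0.0502), with total counts (0.0514) and with limma-voom (0.297), where the log2 fold changes were 1.36, 1.32 and 1.31. In all 14 alternatives, 1 of which repeats the main fit because the filter removed no gene, the level was higher in wild type.

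Of the exon bases of Ccnd1, 818 (21.3%) are shared with Oraov1 on the opposite strand, named LTO1 in RefSeq. The strand setting of the counting is not stated, so reads of the pair cannot be assigned with certainty. Oraov1 itself had 8.09 ± 1.85 CPM (SD, n = 3) in wild type and 3.68 ± 2.95 CPM (SD, n = 2) in knockout. Its difference, 1.02 on the log2 scale with an SE of 0.55, was not called (edgeR adjusted p = 0.314). Its counts were 200 to 1006 in the wild type libraries and 55 and 5 in the knockout libraries, lower than those of Ccnd1 in every library.

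Ccnd2, the gene of cyclin D2 (chromosome 6, 127125779 to 127151048, minus strand), went the other way in its point estimate and was not called. It had 133.4, 85.5 and 104.3 CPM in wild type 1 to 3 and 134.8 and 116.8 CPM in knockout 1 and 2. Both knockout libraries lay above wild type 2 and 3, while wild type 1 lay among them, so the groups overlapped. Its log2 fold change was -0.23 (95% interval -0.69 to 0.24, edgeR adjusted p = 0.599), and this interval ends below the lower bound of Ccnd1, 0.68. A lncRNA annotated in RefSeq, 9330179D12Rik, spans 467 of the 5701 exon bases of Ccnd2.

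Ccnd3, which encodes cyclin D3 (chromosome 17, 47505051 to 47599691, plus strand), was at 248.3, 215 and 259.9 CPM in wild type 1 to 3 and at 199.2 and 164.8 CPM in knockout 1 and 2. The groups did not overlap, but the gap between wild type 2 and knockout 1 was smaller than the spread within either group. A log2 fold change of 0.40 (SE 0.19, 95% interval -0.001 to 0.81) was not called (edgeR adjusted p = 0.246). Ccnd3 shares 361 of its 8775 exon bases with Bysl on the opposite strand, whose log2 fold change was 0.03 (SE 0.26).

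The makeup of the D cyclins was compared as shares of their summed CPM per kilobase of exon, a scale meant to adjust for unequal gene length. The deposited length joins the exons of all annotated transcripts, so a gene with long unused exons gets too small a share. The cDNA was primed from oligo(dT), so counts need not scale with exon length, which was not tested. Ccnd1 made up 13, 15 and 14.5% of the sum in wild type 1 to 3 and 7.42 and 4.83% in knockout 1 and 2. Ccnd2 made up 39.4, 32.3 and 32.6% in wild type and 47.2 and 49.6% in knockout. Ccnd3 was at 47.6, 52.7 and 52.8% in wild type and at 45.3 and 45.5% in knockout. For each of the 3 shares the groups did not overlap: Ccnd1 and Ccnd3 took a larger part in every wild type library and Ccnd2 in both knockout libraries. The 3 shares add up to the whole and so do not count as separate observations.

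The differences of wild type minus knockout were 8.07 percentage points for Ccnd1 (14.2 ± 1.02% against 6.12 ± 1.83%), -13.7 for Ccnd2 (34.8 ± 3.99% against 48.4 ± 1.71%) and 5.61 for Ccnd3 (51 ± 2.99% against 45.4 ± 0.125%), with SD over 3 and 2 libraries. A two-sided exact permutation test, which doubles the smaller tail, gave p = 0.2 for each. This is the smallest p of that test with 10 ways to choose 2 of 5 libraries, so it cannot reach the threshold. Across every library left out in turn, the Ccnd1 difference ran from 6.77 to 9.36 points, and with counts not divided by length it was 4.4 points.

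**Figure D2:**
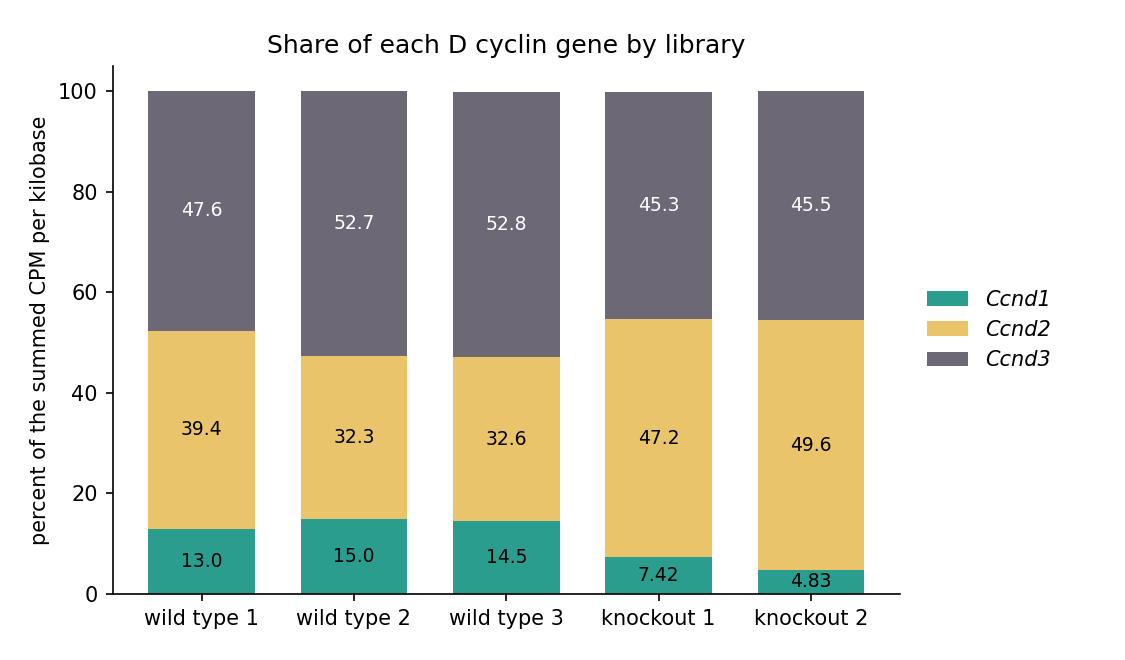
Share of Ccnd1, Ccnd2 and Ccnd3 in their summed CPM per kilobase, in percent, as stacked bars with 1 bar per library. The Ccnd1 segment is 13 to 15% in the wild type libraries and 7.42 and 4.83% in the knockout libraries, and the Ccnd2 segment is larger in both knockout libraries than in any wild type library.

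Cdk4 and Cdk6 encode the catalytic partners of the D cyclins. Cdk4 (chromosome 10, 127063534 to 127067920, plus strand) had 130, 122.5 and 126.3 CPM in wild type 1 to 3 and 97.5 and 103.1 CPM in knockout 1 and 2. Every wild type library was above both knockout libraries, and the spread within each group was narrow. The difference was not called (log2 fold change 0.33, standard error 0.18, 95% interval -0.06 to 0.73, edgeR adjusted p = 0.331). On the opposite strand, Tspan31 shares 604 of the 3249 exon bases of Cdk4 and differed by 0.40 on the log2 scale (SE 0.28), also not called.

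Cdk6 (chromosome 5, 3343893 to 3523218, plus strand) was at 8.77, 13.6 and 6.24 CPM in wild type 1 to 3 and at 9.84 and 7 CPM in knockout 1 and 2. Knockout values fell inside the wild type range, and the value of knockout 2 rests on 22 counts. Its log2 fold change was 0.15 (95% interval -0.80 to 1.11, edgeR adjusted p = 0.886), an interval that spans 0 and holds differences of more than 2-fold; it was -0.18 without wild type 2. The deeper libraries also differed beyond counting error, with 95% exact Poisson intervals of 12.4 to 14.9 CPM in wild type 2 and 5.67 to 6.85 CPM in wild type 3. Per kilobase, Cdk4 made up 91.2 to 95.9% of the sum of both kinases in wild type and 91.9 and 94.4% in knockout. These shares overlapped (93.8 ± 2.4% against 93.2 ± 1.77%, n = 3 and 2, exact permutation p = 0.8).

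**Figure D3:**
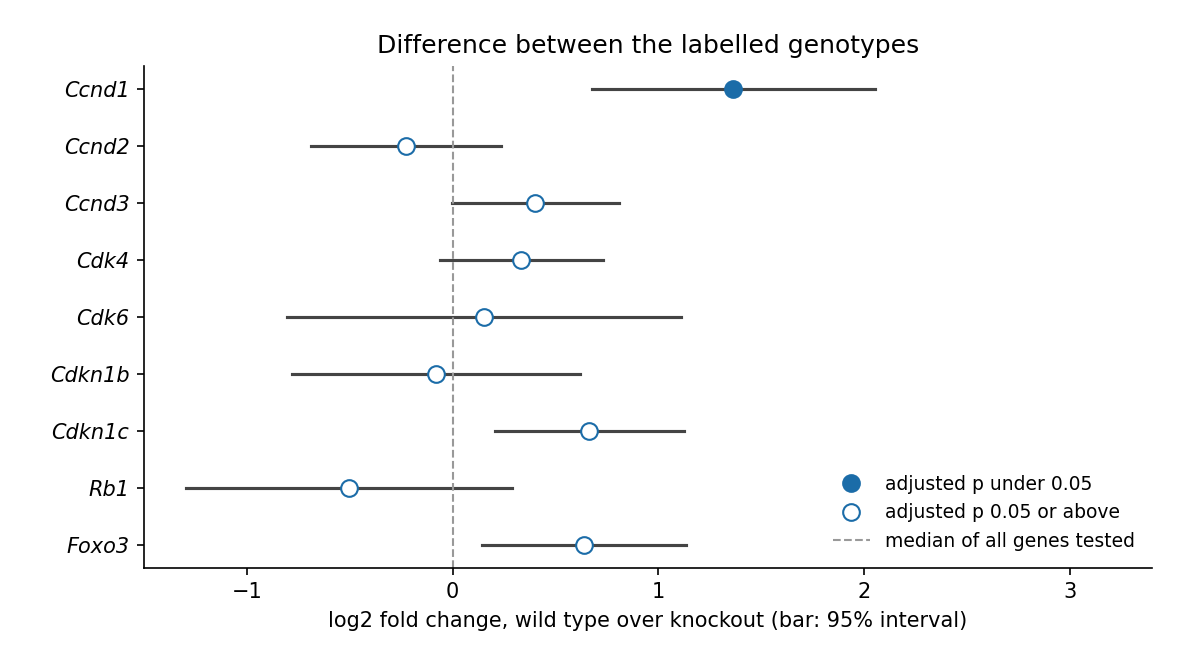
Log2 fold change of wild type over knockout for the 9 genes, with 95% intervals as bars; the filled point has an adjusted p under 0.05 and the dashed line is the median of all genes tested. Only the intervals of Ccnd1, Cdkn1c and Foxo3 lie wholly above 0, and those of Cdk6, Rb1 and Cdkn1b are the widest.

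Of the 2 inhibitor genes, Cdkn1c had the higher CPM in every library. A difference between their fold changes was not tested, and their 95% intervals overlapped. Cdkn1c, which encodes p57 (chromosome 7, 143458350 to 143461050, minus strand), had 95.6, 83 and 70.6 CPM in wild type 1 to 3 and 53.4 and 51.2 CPM in knockout 1 and 2. Every wild type library was above both knockout libraries, which were close to each other. Means were 83.1 ± 12.5 CPM (SD, n = 3) and 52.3 ± 1.55 CPM (SD, n = 2). This is a log2 fold change of 0.67 (SE 0.21, 95% interval 0.21 to 1.12). Its edgeR adjusted p was 0.102 and it was not called, although the unadjusted p was 0.00768. Over the 14 alternatives its log2 fold change ran from 0.54 to 0.77 and its adjusted p from 0.0537 to 0.394. No other gene of the table or of RefSeq overlapped it.

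Cdkn1b, which encodes p27 (chromosome 6, 134920401 to 134925513, plus strand), had 19.1, 18 and 13.6 CPM in wild type 1 to 3 and 14.3 and 22 CPM in knockout 1 and 2. The lowest value was that of wild type 3 and the highest that of knockout 2, and the groups overlapped between 14.3 and 19.1 CPM. Its log2 fold change was -0.08 (95% interval -0.78 to 0.62, edgeR adjusted p = 0.918), and its sign turned with single libraries left out (from -0.38 without knockout 1 to 0.23 without knockout 2). The knockout values rest on 137 and 69 counts. No overlapping gene was found for Cdkn1b.

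Rb1, the gene of the retinoblastoma protein (chromosome 14, 73183673 to 73325822, minus strand), had 16.8, 14.4 and 7.75 CPM in wild type 1 to 3 and 17.8 and 19.1 CPM in knockout 1 and 2. Wild type 3 was far below the others, and both knockout libraries were just above wild type 1. Rb1 had a log2 fold change of -0.50 (standard error 0.37, 95% interval -1.29 to 0.29, edgeR adjusted p = 0.476), and it was -0.25 without wild type 3. Knockout 1 and 2 rest on 170 and 60 counts. Rb1 shares exon bases on the opposite strand with Rcbtb2 (488 of 6015) and with Lpar6 (408), a receptor gene inside the Rb1 locus; their log2 fold changes were 0.51 (SE 0.40) and -0.42 (SE 0.39), neither called.

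Foxo3 (chromosome 10, 42181841 to 42276755, minus strand) had 63.5, 61.6 and 58.1 CPM in wild type 1 to 3 and 32.6 and 46.8 CPM in knockout 1 and 2. The wild type libraries lay close together and above both knockout libraries, which differed more from each other than the wild type libraries did. Means were 61 ± 2.74 CPM (SD, n = 3) and 39.7 ± 10 CPM (SD, n = 2). With a log2 fold change of 0.64 (SE 0.23, 95% interval 0.14 to 1.13), Foxo3 was not called (edgeR adjusted p = 0.142). It was 0.91 without knockout 2 and 0.38 without knockout 1. A RefSeq lncRNA, Gm38485, spans 517 of its 7571 exon bases.

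The order of levels was read on CPM per kilobase of exon. The deposited length joins the exons of all annotated transcripts of a gene, so genes with long unused exons are placed too low. With cDNA primed from oligo(dT), counts need not scale with exon length, and the order depends on that division. In mean CPM, not divided by length, Ccnd3 was highest in both groups (241.1 in wild type, 182 in knockout). Cdkn1c, at 83.1 and 52.3 CPM, lay below Cdk4 and Ccnd2 in both. In wild type Cdkn1c (43 ± 6.46, SD, n = 3) and Cdk4 (38.9 ± 1.14) stood highest, with overlapping libraries, followed by Ccnd3 (27.5 ± 2.66) and Ccnd2 (18.9 ± 4.23), which overlapped neither their neighbours nor each other. Foxo3 (8.06 ± 0.362) and Ccnd1 (7.62 ± 0.606) came next and overlapped. Cdkn1b (3.71 ± 0.645), Cdk6 (2.55 ± 1) and Rb1 (2.16 ± 0.78) were lowest, and each overlapped the next. Per kilobase, the p57 gene thus stood above the p27 gene in every library of both groups.

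In knockout the order on the same scale was Cdk4 (30.9 ± 1.21, SD, n = 2), Cdkn1c (27.1 ± 0.803), Ccnd2 (22.1 ± 2.24), Ccnd3 (20.7 ± 2.77), Foxo3 (5.24 ± 1.33), Cdkn1b (3.99 ± 1.18), Rb1 (3.07 ± 0.151), Ccnd1 (2.85 ± 1.22) and Cdk6 (2.25 ± 0.539). Ccnd2 and Ccnd3 overlapped there, and so did each neighbouring pair from Foxo3 down. Ccnd1 stood at rank 6 in wild type, with no library overlapping those of Cdkn1b below it, and at rank 8 in knockout, where it overlapped Rb1 above and Cdk6 below. The top 4 and the other 5 genes did not overlap in either group.

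**Figure D4:**
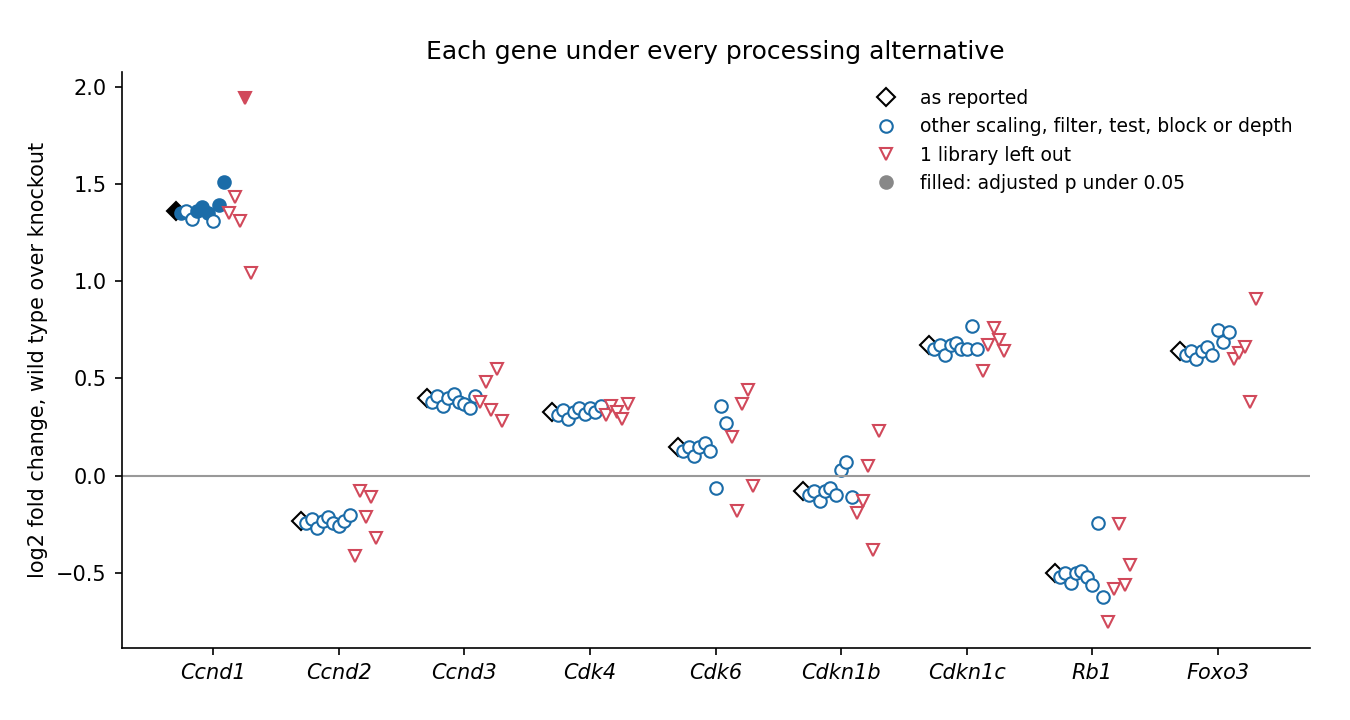
Log2 fold change of wild type over knockout of each gene as reported (black diamond), under 9 other settings of scaling, filter, test, block or depth (blue circles) and with 1 library left out (red triangles); filled symbols have an adjusted p under 0.05. Ccnd1 stays between 1.04 and 1.94 and is the only gene with filled symbols, while Cdk6 and Cdkn1b lie on both sides of 0.

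By a distance rule, the genes whose profiles over the 5 libraries were most like that of Ccnd1 were Dag1, Spry1 and Rapsn. The candidates were 4786 genes with a mean log2 CPM of at least 5. Ccnd1, at 31.3 CPM or less in every library, lay below that floor itself, so genes at its level were not compared. Likeness was the root mean square difference of log2 CPM centred over the libraries, which was 0.168, 0.174 and 0.183 for these. Dag1, which encodes dystroglycan, had 128.9 to 166.9 CPM in wild type and 58.9 and 35 CPM in knockout. Spry1, a Sprouty gene that dampens growth factor signalling, had 336.9 to 504.5 CPM in wild type and 208.6 and 129.5 CPM in knockout. Rapsn, which encodes the rapsyn protein that clusters acetylcholine receptors at the neuromuscular junction, had 128 to 149.9 CPM in wild type and 87 and 49 CPM in knockout. In all 3, as in Ccnd1, knockout 2 was the lowest library and knockout 1 the next, and with 5 libraries many profiles are close to any given shape.

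The other genes of the pathway were read from 6 lists, and none of their 74 measured members was called by edgeR in either direction, against 2.05% of all genes tested; at an unadjusted p under 0.05 edgeR placed 10 of them, 4 with the higher level in wild type and 6 with it in knockout, against 20.4% of all genes. DESeq2 called none of them either. Genes missing from the table had been filtered out or were not counted there, and nothing is said of their level.

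Of 11 genes of cyclin E, CDK2 and the CDK-activating kinase, which act after the D cyclins, 8 were measured and their median log2 fold change was 0.14. Cdk2 had 12.8 ± 2.9 CPM (SD, n = 3) in wild type and 17.7 ± 2.97 CPM (SD, n = 2) in knockout (log2 fold change -0.47, edgeR adjusted p = 0.462). Ccne1, the gene of cyclin E1, had 4.83 ± 1.39 against 7.17 ± 1.55 CPM (-0.55, edgeR adjusted p = 0.574). In each of these genes both knockout libraries were above every wild type library, as in 18.1% of all genes, but the gaps were small. For Cdk2, knockout 2 was at 15.6 CPM (49 counts) and wild type 1 at 14.9 CPM. For Ccne1, knockout 1 was at 6.07 CPM (58 counts) and wild type 3 at 6.06 CPM. Both genes were named for the smallest p in their list, which favours such separation. Of 5 further CDK inhibitor genes, 3 were measured, with a median of 0.30. Cdkn1a, the p21 gene, had 949 ± 171.6 against 772.5 ± 156.4 CPM (0.30, edgeR adjusted p = 0.443), with overlapping groups. Per kilobase it was at 426.9 ± 77.2 in wild type and 347.5 ± 70.4 in knockout, above each of the 9 genes on that scale. Cdkn2d, the p19 inhibitor of CDK4 and CDK6, had 57 ± 9.54 against 79.7 ± 10.1 CPM (-0.49, edgeR adjusted p = 0.221).

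Among pocket proteins, E2F and DP factors and the MuvB subunits that hold cell cycle genes silent, 14 of 17 were measured, with a median of -0.02. E2f1 had 23.9 ± 5.61 CPM (SD, n = 3) in wild type and 13.4 ± 1.76 CPM (SD, n = 2) in knockout (0.85, edgeR adjusted p = 0.156). Rbbp4, a histone-binding subunit of MuvB, had 105.4 ± 22.2 against 70.2 ± 3.85 CPM (0.59, edgeR adjusted p = 0.164). Both were higher in every wild type library than in either knockout library, as were 20.4% of all genes. They were named for the smallest p in their list, which favours such separation. The other measured MuvB genes, Lin37, Lin52 and Lin54, were chosen after their values were seen. They went the other way from Rbbp4, with log2 fold changes of -0.73, -1.20 and -1.26 and edgeR adjusted p from 0.17 to 0.207. Knockout 1 and 2 held 68 and 47 counts of Lin52 and 67 and 43 counts of Lin54. Lin37 was called higher in knockout with the replicate number as a block (-1.08, edgeR adjusted p = 0.00665). In that fit wild type 3, alone in its block, adds nothing to the difference.

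In the list of FoxO factors and PI3K, AKT and TOR signalling, which acts on FOXO3, 18 of 19 were measured, with a median of 0.07. Foxo6 had 6.12 ± 2.62 CPM (SD, n = 3) in wild type and 2.04 ± 2.44 CPM (SD, n = 2) in knockout, with overlapping groups, and its knockout libraries held 36 and 1 counts (edgeR adjusted p = 0.295). Of 17 genes that turn over D cyclins and p27, 16 were measured, with a median of 0.21. Ambra1, the ubiquitin ligase receptor for D cyclins, had 30.6 ± 3.3 against 17.9 ± 5.51 CPM (0.74, edgeR adjusted p = 0.166), and Ddb1, its adaptor in the ligase, 176.6 ± 18.3 against 129.8 ± 12.6 CPM (0.45, edgeR adjusted p = 0.204). For both genes every wild type library was above both knockout libraries, as in 20.4% of all genes. Ambra1 and Ddb1 were named for the smallest p in their list, which favours such separation.

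Of 30 genes of S, G2 and M phase, 15 were in the table, with a median of -0.15, and 15 were not, among them the proliferation marker Mki67 and the mitotic kinase gene Cdk1. Birc5, the gene of the mitotic protein survivin, had 2.94 ± 1.04 CPM (SD, n = 3) in wild type and 8.45 ± 5.59 CPM (SD, n = 2) in knockout, where it rested on 43 and 39 counts (-1.48, edgeR adjusted p = 0.166). Mcm4, a subunit of the replicative helicase, had 41.2 ± 5.04 against 25.9 ± 16.8 CPM, with 37.8 CPM in knockout 1 and 14 CPM in knockout 2 (0.62, edgeR adjusted p = 0.317). Without knockout 1, Mcm4 was called higher in wild type (1.56, adjusted p = 0.0438, edgeR quasi-likelihood test). The summed level of the 15 genes was 314.3 to 369.9 CPM in wild type and 328.5 and 355 CPM in knockout, so that the groups overlapped.

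**Figure D5:**
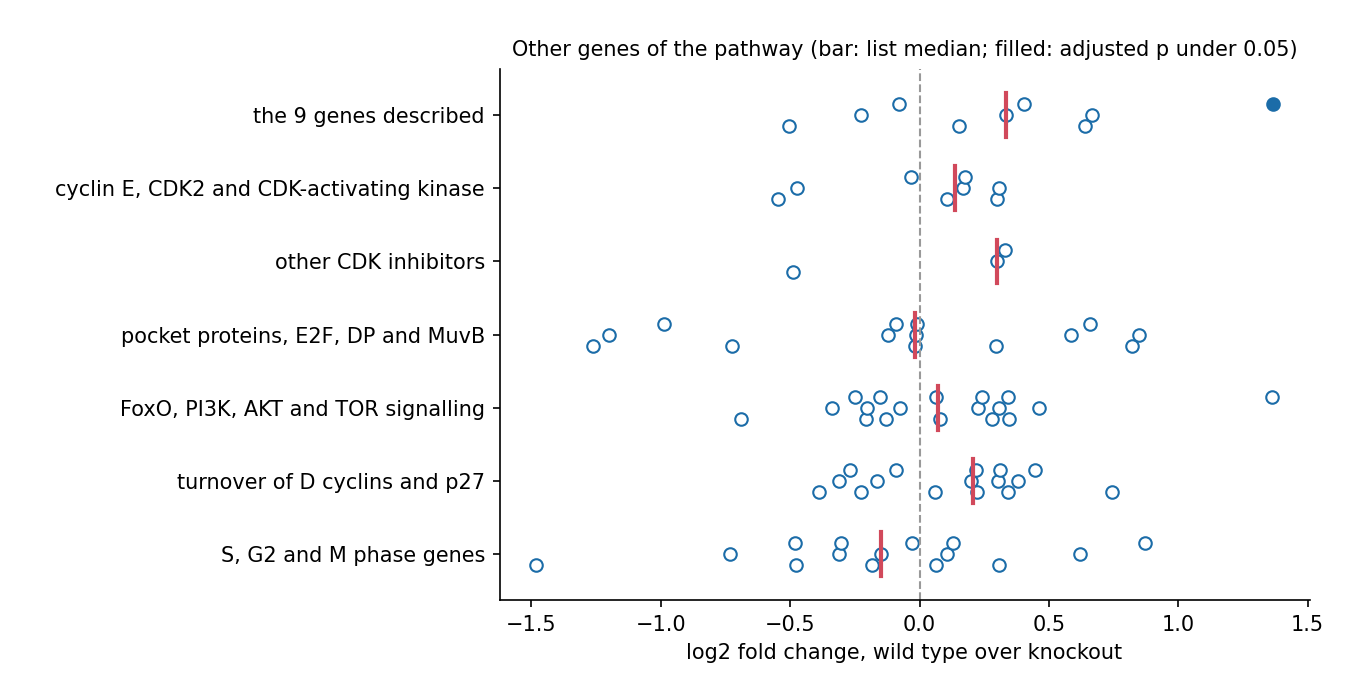
Log2 fold change of wild type over knockout for the 9 genes and for the measured members of 6 pathway lists; each circle is a gene, red bars are list medians and the dashed line is the median of all genes tested. Ccnd1 is the only filled point (adjusted p under 0.05), and list medians run from -0.15 to 0.30.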

How the data were processed

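Tools named, per the submitters' processing notes, are STAR, Trim Galore, featureCounts (Subread) and edgeR, with the mm10 genome; the sources used here give no versions, annotation release or strand setting. Per the labels' protocols, 100 pg of RNA from the precipitates was reverse-transcribed from oligo(dT), amplified, and sequenced as paired 101 bp reads. The authors deposited raw counts per gene. The columns of exon length in bases, symbol, gene identifiers, exon coordinates and strand were used as well. Low genes had been removed, as the deposited values show: the third-highest CPM of a gene was never below 3.02, so a gene present in the knockout libraries alone could not be listed.

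Counts were tested in R 4.3.3 with edgeR 4.0.16 (filterByExpr, which removed no gene, TMM, quasi-likelihood F-test, two-sided, Benjamini-Hochberg over 11194 genes, threshold 0.05); the fit was tested on simulated data. The test had 14 degrees of freedom, 11 of them from the prior. SE is the coefficient over the root of F. Alternatives used DESeq2 1.42.0 and limma 3.58.1, among others given in the closing section. 18 symbols turned into dates by a spreadsheet were restored from RefSeq (GRCm38.p6). The genes and lists were chosen with earlier results of these data known. Named were the 9 genes, Stau1, the 2 smallest p of each pathway list, and the 3 profiles nearest to a called gene. 1 gene that this rule names is not reported here. Counting intervals cover counting error only.

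Marker lists of other cells had these medians of log2 fold change and calls. Muscle fibre markers had -1.33 and 0 of 9. Their sums in the 2 knockout libraries lay on opposite sides of wild type, but in Mylpf, Tnni2 and Pvalb knockout 1 fell inside the wild type range. Fibro-adipogenic progenitor markers had 0.56, with 2 higher in wild type and 1 in knockout of 9. Leukocyte markers had -0.22 and 0 of 7, and red blood cell markers -1.19, with 3 of 4 higher in knockout. Pericyte markers had -0.32 and 0 of 6. Schwann cell markers had -1.03, with 1 of 5 higher in knockout. The endothelial median was -0.82.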

Additional observations from a re-analysis of the deposited data

How the results depend on the processing

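The call of Ccnd1 was the only one among the 9 genes, and the number called higher in wild type fell from 1 to 0 with upper-quartile factors, with total counts and with limma-voom, and ran from 0 to 1 over the libraries left out in turn; it was 1 with RLE factors, without a filter, with at least 10 counts in every library, with DESeq2, with the replicate block and after thinning to the shallowest library. No gene of the 9 was called higher in knockout under any of the 14 alternatives, and 6 of 9 did not overlap between groups under each of the 3 other scalings. Of the 14 alternatives, 1, the fit without a filter, repeats the main fit, as filterByExpr removed no gene. The cause of the lost calls was not tested.

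Across all genes, the calls for wild type (118) and for knockout (112) became 434 and 466 with DESeq2, 8 and 14 with limma-voom and 288 and 324 with the replicate block; the count higher in knockout was 175 after thinning. Leaving out a library gave between 11 and 176 calls for wild type and between 23 and 172 for knockout. With 1 knockout library left, that library is assumed to vary like the others. Replicate numbers are shared between groups by label alone: deviations from the group means correlated at 0.05 and 0.04 across genes for same-numbered libraries, and with 2 knockout libraries these deviations mirror each other. The block moved the log2 fold change of Ccnd1 to 1.39 (edgeR adjusted p = 0.0121) and changed no call among the 9. Replicate 3 exists only in wild type, so under the block wild type 3 adds nothing to the fitted difference. With wild type 3 left out and no block, the Ccnd1 call was lost (1.31, edgeR adjusted p = 0.147).

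Of the pathway lists, 1 gene was called with the replicate block (Lin37), and over the libraries left out the count ran from 0 to 1. Signs turned for genes near 0. Cdkn1b was at 0.03 with limma-voom, 0.07 with the replicate block, and from -0.38 to 0.23 over the libraries left out. Cdk6 was at -0.06 with limma-voom and from -0.18 to 0.44 over the libraries left out. The difference in the Cdk4 share was 0.669 percentage points, and from -0.579 to 1.99 over the libraries left out. The log2 fold changes of the other 7 kept their sign under all 14 alternatives. In knockout 2, the shallowest library, Cdk6, Ccnd1, Rb1 and Cdkn1b rest on 22 to 69 counts, and counting intervals there are wide.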
